A study of Mus musculus with 2 samples.

Results

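The genes Bex4, Kif21a, Ptn, Mt1, Mt2 and Slc16a11 form a set of 6 of the 32285 genes counted in both libraries of a single-cell experiment on mouse bone marrow. They were chosen by a list from their high ratios between the libraries in stem-cell-like cells, so those ratios are given here as a description with no test, and the list has no threshold. The rule does not say which cells it called stem-cell-like, so the ratios in both populations of that kind used here, HSC/MPP-like (hematopoietic stem cell or multipotent progenitor) cells and cells with UMIs of Hlf and Mecom, count as used in the choice. In the former the log2 ratios were 2.21 for Bex4, 2.25 for Kif21a, 2.34 for Ptn, 2.26 for Mt1, 3.75 for Mt2 and 1.78 for Slc16a11. The questions were which cells held their transcripts, how many transcripts a positive cell carried, and which surface proteins the positive cells bore.

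The cells were CD45.2+ Kit+ bone marrow cells taken 10 weeks after transplantation, from a control group and from a group labelled Utx deleted, with 1 library of each. CD45.2 is the surface allele by which donor cells are told from host cells, and Kit is the stem cell factor receptor of early blood cells. The labels do not name the mouse strain, a Cre driver, how the gene was deleted, the age or number of the donors, or the host, and the title of the series concerns the related methyltransferases MLL3 and MLL4. Kdm6a, which encodes UTX, was at 110 CPM (UMIs, unique molecular identifiers that each stand for 1 captured transcript, of the gene per 1000000 UMIs, both summed over the cells) in the control library and at 103 CPM in the other. In Hlf+ Mecom+ cells it was at 161 CPM (exact 95% Poisson interval 154 to 167) and 160 CPM (150 to 170), so the second group is called the library labelled Utx-deleted throughout. A 3′ tag outside a deleted exon would not show a deletion.

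Each cell also carried 1 of 2 antibody hashtags in most cases, and the labels do not say what a hashtag marks. Hashtag values are therefore shown side by side and are not replicates. After filtering, 7020 control cells and 7207 of the other library were kept. Their median depth was 12365 and 11855 UMIs. The libraries shared 17 barcodes in all and 13 among the kept cells. Every interval below is an exact 95% interval that covers counting error only, because there is no second library of either group and no p-value can be given. Fewer cells of a type and less RNA per cell cannot be told apart in a summed level, so shares of cells are given beside it.

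Bex4 belongs to a family of small X-linked proteins. Kif21a encodes a kinesin-4 motor that restrains microtubule growth at the cell cortex. Ptn encodes pleiotrophin, a secreted heparin-binding growth factor that the endothelial and stromal cells of the marrow niche are known to supply to hematopoietic stem cells. Mt1 and Mt2 encode metallothioneins, small cysteine-rich proteins that bind zinc and other metals and whose genes are induced through the zinc-sensing factor MTF1 and by glucocorticoids. Slc16a11 encodes a member of the monocarboxylate transporter family.

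In the GENCODE annotation of GRCm38, the 6 genes lay on 5 chromosomes and all were annotated as protein-coding. Bex4 (ENSMUSG00000047844) lay at chrX:136138996-136140443 on the plus strand and Kif21a (ENSMUSG00000022629) at chr15:90933276-91049948 on the minus strand. Ptn (ENSMUSG00000029838) lay at chr6:36714929-36810220 on the minus strand and Slc16a11 (ENSMUSG00000040938) at chr11:70212752-70216417 on the plus strand. Mt2 (ENSMUSG00000031762) at chr8:94172664-94173568 and Mt1 (ENSMUSG00000031765) at chr8:94179082-94180327 were neighbours on the plus strand, with 5513 bases between them. Mt2 overlaps the antisense gene Gm45774, and whether the counting used strand is not given in the sources used here. Gm45774 itself had 0 control UMIs and 1 UMI in the other library over all kept cells, against 221 and 192 of Mt2.

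The promoters of the neighbouring metallothionein genes are printed because both genes were among the members and both were at higher levels in the Hlf+ Mecom+ cells labelled Utx-deleted, as described further down. Each runs from 250 bases before the RefSeq start site to 50 after it, on the plus strand of GRCm38.p6, at chr8:94178839-94179138 for Mt1 and chr8:94172368-94172667 for Mt2. Capitals mark the core of the metal response element to which MTF1 binds, searched as TGCACNC and TGCGCNC on both strands.
Mt1: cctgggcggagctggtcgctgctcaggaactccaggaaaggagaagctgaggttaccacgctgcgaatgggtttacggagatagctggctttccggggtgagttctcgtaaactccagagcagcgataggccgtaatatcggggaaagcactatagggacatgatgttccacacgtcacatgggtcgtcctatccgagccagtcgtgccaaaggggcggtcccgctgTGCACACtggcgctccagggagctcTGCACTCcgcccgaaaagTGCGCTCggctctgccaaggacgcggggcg
Mt2: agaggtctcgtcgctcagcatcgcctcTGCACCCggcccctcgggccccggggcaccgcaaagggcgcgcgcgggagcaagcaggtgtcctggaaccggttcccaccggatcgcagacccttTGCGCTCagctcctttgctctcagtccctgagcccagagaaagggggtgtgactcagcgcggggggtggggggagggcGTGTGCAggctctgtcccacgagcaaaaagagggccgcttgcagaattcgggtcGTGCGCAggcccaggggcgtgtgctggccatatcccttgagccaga
The Mt1 window held 3 matches and the Mt2 window 4. At least 1 match was found in 25.7% of the 32851 RefSeq promoter windows of this length, 3 or more in 1.97% and 4 or more in 0.517%. All 6 members matched a RefSeq promoter by symbol, and the windows of Bex4 and Ptn held 0, that of Kif21a 1 and that of Slc16a11 2. A match is a description of these letters and not evidence of binding.

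The first population was gated by at least 1 UMI each of Hlf and Mecom, transcription factors of hematopoietic stem cells, and used no member of the set. It held 496 control cells, 7.07% (6.48 to 7.69) of those kept. In the library labelled Utx-deleted it held 177, which was 2.46% (2.11 to 2.84). In the control library 69.4% of these cells lay in a cluster named HSC/MPP-like from its markers, and 20% in a cluster of megakaryocyte and erythroid cells. The same shares were 62.7% and 20.9% in the other library. All 14 markers of the HSC/MPP list had UMIs in the gate in both libraries, with a summed level of 2551 and 2054 CPM. The gate cells labelled Utx-deleted were deeper, with a median of 32765 UMIs against 27535. A UMI of Flt3, a receptor of multipotent and lymphoid-primed progenitors, was found in 51.0% of control gate cells and 18.1% of those of the other library.

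All 6 members were higher in the Hlf+ Mecom+ cells of the library labelled Utx-deleted than in those of the control library. This was so for both hashtags. Over all genes with at least 20 UMIs in these cells, 3.01% of 12807 were higher by 2-fold or more in the library labelled Utx-deleted and 4.03% were lower by as much, while all 6 members were past 2-fold higher. Since these cells may be the ones from which the members were chosen, nothing is read from 6 of 6 beside 3.01%, and the ratios in this gate are no independent support of the choice. The median log2 ratio of all measured genes was -0.017.

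**Figure D1:**
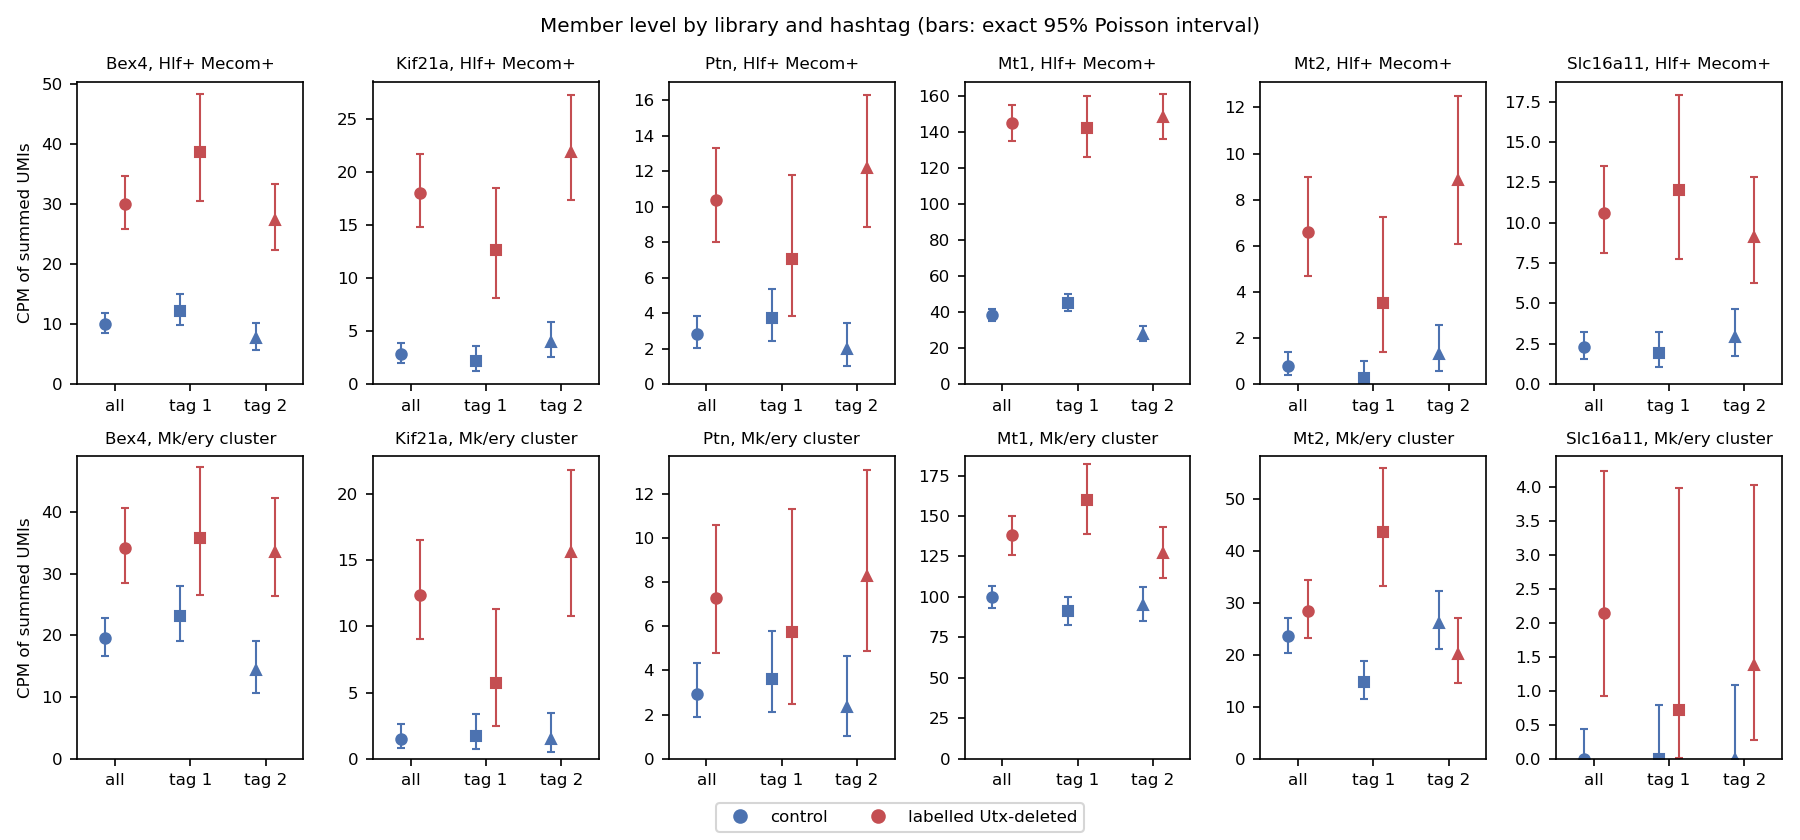
Level of each member in CPM of summed UMIs (linear axes that start at 0) in Hlf+ Mecom+ cells (top) and in the megakaryocyte and erythroid cluster (bottom), for all cells, hashtag 1 (tag 1) and hashtag 2 (tag 2), with control in blue, the library labelled Utx-deleted in red and bars for the exact 95% Poisson interval. In the top row each red point lies above its blue partner, and in the bottom row Mt2 of hashtag 2 is the exception, at 20.2 against 26.2 CPM.

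Mt1 was the most abundant member in UMIs. It was at 38.3 CPM (35.1 to 41.7) in control Hlf+ Mecom+ cells and at 145 CPM (135 to 155) in those of the other library. Hashtag 1 cells were at 45.0 and 142 CPM and hashtag 2 cells at 27.9 and 148 CPM. The levels of the library labelled Utx-deleted were thus close to each other between hashtags, and the control levels were further apart. The log2 ratio was 1.92 (1.76 to 2.08), from 541 and 878 UMIs. The share of cells with an Mt1 UMI was 31.9% (27.8 to 36.2) and 84.7% (78.6 to 89.7). Positive cells also held more of it, at a mean of 3.42 UMIs in 158 control cells and 5.85 UMIs in 150 cells of the other library, or 100 and 163 CPM within positive cells. Control cells positive for Mt1 had a median depth of 33097 UMIs, above the 27535 of all control gate cells.

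Mt2 was nearly absent from control Hlf+ Mecom+ cells, with 11 UMIs in 5 of 496 cells (0.779 CPM, 0.389 to 1.39), and 7 of these UMIs were in 1 cell. The library labelled Utx-deleted had 40 UMIs in 21 of 177 cells (6.60 CPM, 4.71 to 8.98). By hashtag the levels were 0.275 and 3.51 CPM for hashtag 1 and 1.31 and 8.86 CPM for hashtag 2. The hashtag 1 values rest on 2 and 7 UMIs. The log2 ratio over all cells was 2.99 (2.09 to 4.19). Within the gate it was 5.06 (3.39 to 11.36) in HSC/MPP-like clusters, from 1 and 25 UMIs. In the megakaryocyte and erythroid cluster it was 1.42 (0.13 to 2.88), from 9 and 13 UMIs. In gate cells with no Flt3 UMI it was 2.24 (1.29 to 3.52), from 10 and 35 UMIs. The share of cells with an Mt2 UMI was 1.01% (0.328 to 2.34) against 11.9% (7.5 to 17.6). Besides the control cell with 7 UMIs, the other 4 positive control cells held 1 each. In the other library 11 positive cells held 1 UMI and 10 held more, so levels within positive cells were not compared.

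Bex4 was at 10.1 CPM (8.47 to 11.8) in control Hlf+ Mecom+ cells and at 30 CPM (25.8 to 34.7) in those of the other library, a log2 ratio of 1.58 (1.25 to 1.91). Hashtag 1 gave 12.2 and 38.7 CPM and hashtag 2 gave 7.67 and 27.4 CPM. Hashtag 1 cells were thus the higher of the pair in both libraries. Positive cells made up 13.1% (10.3 to 16.4) and 38.4% (31.2 to 46.0), and held a mean of 2.18 and 2.68 UMIs. Within positive cells the level was 71.4 and 75.7 CPM. In gate cells with no Flt3 UMI the log2 ratio was 0.80 (0.44 to 1.18), from 113 and 137 UMIs, and in cells thinned to 2000 UMIs it was 0.85, from 13 and 8 UMIs, both under 2-fold. The gate cells of the HSC/MPP-like clusters gave 4.45 and 28.1 CPM, a log2 ratio of 2.64 (2.12 to 3.21), in cells whose ratios also count as used in the choice. Those of the megakaryocyte and erythroid cluster gave 33.8 and 46.4 CPM, with 0.46 (-0.015 to 0.92), an interval that includes 0.

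Kif21a was at 2.83 CPM (2.02 to 3.86) in the control gate and 18.0 CPM (14.8 to 21.7) in that of the library labelled Utx-deleted. Its log2 ratio of 2.64 (2.13 to 3.23) rests on 40 and 109 UMIs. For hashtag 1 it was at 2.20 and 12.6 CPM and for hashtag 2 at 3.92 and 21.9 CPM. The log2 ratio of hashtag 2 over hashtag 1 was 0.81 (-0.14 to 1.85) in control cells, an interval that includes 0, and 0.76 (0.14 to 1.51) in the other library. The share of positive cells was 6.45% (4.45 to 8.99) and 32.2% (25.4 to 39.6), and the mean per positive cell 1.25 and 1.91 UMIs.

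Ptn was also at 2.83 CPM (2.02 to 3.86) in control Hlf+ Mecom+ cells, and at 10.4 CPM (7.99 to 13.3) in the library labelled Utx-deleted. The log2 ratio was 1.86 (1.28 to 2.49). The hashtags differed in size: 3.71 and 7.03 CPM for hashtag 1, with a log2 ratio of 0.97 (-0.12 to 1.90), and 1.96 and 12.2 CPM for hashtag 2, with 2.55 (1.69 to 3.69). The hashtag 1 interval includes 0, and its count in the library labelled Utx-deleted was 14 UMIs in 10 of 61 cells. Positive cells were 5.24% (3.45 to 7.59) and 19.2% (13.7 to 25.8) of the gate, with a mean of 1.54 and 1.85 UMIs. Within the gate the log2 ratio was 2.77 (1.97 to 3.75) in HSC/MPP-like clusters, and 0.62 (-0.35 to 1.53) in the megakaryocyte and erythroid cluster, from 24 and 19 UMIs.

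Slc16a11 was at 2.27 CPM (1.55 to 3.20) and 10.6 CPM (8.13 to 13.5), a log2 ratio of 2.20 (1.59 to 2.88). Hashtag 1 cells were at 1.92 and 12 CPM and hashtag 2 cells at 2.94 and 9.13 CPM. Positive cells were 5.24% (3.45 to 7.59) and 15.3% (10.3 to 21.4) of the gate, and their mean was 1.23 and 2.37 UMIs. In the library labelled Utx-deleted 5 cells held 54.7% of the Slc16a11 UMIs and 1 cell held 14 of the 64. Among the 6 members and both libraries, only Mt2 in control gate cells had a larger share in its 5 highest cells. Without the 5 highest cells of each library the log2 ratio of Slc16a11 was 1.70 (0.85 to 2.60), from 21 and 29 UMIs. In gate cells with no Flt3 UMI, Slc16a11 had 3 control UMIs and 44 in the other library, a log2 ratio of 4.02 (2.76 to 6.74).

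Markers of other cells moved with the library in this gate. The 11 maturing-neutrophil markers, all detected in both libraries, summed to 7212 CPM in control cells and to 14911 CPM in the others, with 25 and 23 cells in which they passed 1% of UMIs. In single cells the sum ranged from 0.0498% to 38.8% of UMIs in the control library and from 0.0861% to 16.1% in the other. Without the cells above 1%, the log2 ratios were 1.74 for Bex4, 2.65 for Kif21a, 1.96 for Ptn, 1.99 for Mt1, 4.06 for Mt2 and 2.09 for Slc16a11. The 12 megakaryocyte markers, of which 11 were detected, summed to 660 and 875 CPM, and the 13 erythroid markers to 340 and 242 CPM. The 7 neutrophil-progenitor markers summed to 5780 and 7624 CPM. Of the 8 basophil or mast cell markers 6 were detected in control cells and 8 in the others, and they summed to 252 and 249 CPM. The basophil-or-mast-cell-progenitor-like cluster was 1.01% (5 cells) and 4.52% (8 cells) of the gate. Some single genes of granule proteases and proteins were higher in the second library. They were picked for this after their values were seen, while the basophil or mast cell sum was close between the libraries. Cma1 had 0 and 76 UMIs, Mcpt4 0 and 33, Gzmb 10 and 57, and Prg2 19 and 45, out of 14125726 and 6062199 UMIs in the gate. In gate cells outside the basophil, monocyte and neutrophil clusters, the log2 ratios were 1.58 for Bex4, 2.65 for Kif21a, 1.90 for Ptn, 2.54 for Mt1, 3.09 for Mt2 and 2.21 for Slc16a11. The part of the other lists in the members' levels was not tested.

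The second population was the cluster led by Pf4, a platelet chemokine gene, and Car1, a carbonic anhydrase gene of erythroid progenitors. It scored almost alike for both marker lists and so has no single cell type name. It held 333 control cells and 117 of the other library, with median depths of 23090 and 30237 UMIs. Cells with more megakaryocyte than erythroid marker UMIs numbered 130 and 72 (megakaryocyte-dominant), and those with more erythroid ones 200 and 44 (erythroid-dominant). Of all 11921 genes measured in this cluster, 3.91% were higher by 2-fold or more in the library labelled Utx-deleted and 2.96% lower by as much. Maturing-neutrophil markers, with all 11 detected in both libraries, summed to 5432 and 19562 CPM, and in single cells ranged from 0.0543% to 11.4% and from 0.0678% to 21.5% of UMIs. They passed 1% in 14 and 16 cells, and without those cells each ratio given for the whole cluster stayed within its interval. Among the 5 members measured, Kif21a and Ptn were past 2-fold, both higher, and Slc16a11 had too few UMIs to be counted. The cluster shared 99 control cells and 37 of the other library with the Hlf+ Mecom+ gate. Those cells held 24 of its 25 control Ptn UMIs and 19 of 27 in the other library. For Kif21a they held 5 of 13 and 32 of 46, and for Bex4 95 of 166 and 68 of 127. For Mt1 they held 65 of 846 and 162 of 513, and for Mt2 9 of 200 and 13 of 106. The gate ratios count as used in the choice, so the cluster ratios are not independent of it.

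Kif21a had the largest ratio of the members measured in the cluster. It was at 1.53 CPM (0.816 to 2.62) in control cells and 12.4 CPM (9.05 to 16.5) in the others, with 1.70 and 5.73 CPM for hashtag 1 and 1.47 and 15.6 CPM for hashtag 2. The log2 ratio was 2.94 (2.10 to 4.02). In the library labelled Utx-deleted 41 of its 46 UMIs lay in the 72 megakaryocyte-dominant cells and 5 in the erythroid-dominant ones. In control cells the same numbers were 4 and 9 UMIs, at 1.24 CPM (0.338 to 3.18) and 1.73 CPM (0.792 to 3.29), and these intervals overlap.

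Bex4 was at 19.6 CPM (16.7 to 22.8) and 34.1 CPM (28.5 to 40.6) in the cluster, a log2 ratio of 0.80 (0.46 to 1.14). By hashtag it was at 23.2 and 35.8 CPM and at 14.4 and 33.5 CPM. Positive cells were 16.8% (13 to 21.3) and 41.9% (32.8 to 51.4), and their mean content was 2.96 and 2.59 UMIs. The cells of the second library were deeper, and with each cell thinned to 2000 UMIs the shares were 3.92% and 3.42%, from 13 and 4 cells, so the direction of the difference in shares turned. Megakaryocyte-dominant cells had the higher Bex4 level in both libraries, at 29.5 and 43.1 CPM, against 13.7 and 15.3 CPM in erythroid-dominant cells. Ptn followed the same order, at 4.66 and 9.88 CPM in megakaryocyte-dominant and 1.92 and 1.70 CPM in erythroid-dominant cells, the last from 2 UMIs. Over the whole cluster Ptn was at 2.95 and 7.26 CPM, a log2 ratio of 1.30 (0.46 to 2.14). Hashtag 1 gave 0.75 (-0.76 to 1.95), under 2-fold and with an interval that includes 0, and hashtag 2 gave 1.72 (0.54 to 3.22). In cells picked by markers without clusters the log2 ratio of Ptn was 2.12 (1.35 to 2.98), from 22 and 37 UMIs.

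The metallothioneins had the opposite arrangement. Mt1 was at 32.9 and 103 CPM in megakaryocyte-dominant cells and at 142 and 215 CPM in erythroid-dominant cells. Mt2 was at 3.1 and 4.74 CPM in the former and at 36.6 CPM (31.5 to 42.1) and 79.8 CPM (64.5 to 97.7) in the latter. Both genes were thus higher in erythroid-dominant cells in each library. The log2 ratio of Mt2 in erythroid-dominant cells was 1.13 (0.75 to 1.49) over all of them. By hashtag it was 2.68 (2.15 to 3.20) for hashtag 1 and 0.29 (-0.36 to 0.87) for hashtag 2. In the library labelled Utx-deleted, hashtag 1 held 60 of the 94 Mt2 UMIs of these cells. They lay in 3 of 15 cells, 1 of which held 30. For Mt1 the log2 ratio between the libraries was 1.63 (1.31 to 1.98) on the megakaryocyte side and 0.60 (0.38 to 0.80) on the erythroid side. These intervals do not overlap over all cells, but for hashtag 1 they do, at 1.66 (1.17 to 2.17) and 1.33 (1.02 to 1.61). For hashtag 2 the ratios were 1.44 (0.97 to 1.98) and 0.42 (0.10 to 0.73).

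Over the whole cluster the metallothionein ratios were small. Mt1 was at 99.8 CPM (93.2 to 107) and 138 CPM (126 to 150), a log2 ratio of 0.47 (0.31 to 0.63), and Mt2 at 23.6 CPM (20.4 to 27.1) and 28.5 CPM (23.3 to 34.5), a log2 ratio of 0.28 (-0.081 to 0.62). The interval for Mt2 includes 0. Its hashtags went opposite ways, with 14.9 and 43.7 CPM for hashtag 1 and 26.2 and 20.2 CPM for hashtag 2. Mt2 was also held by few cells: in the library labelled Utx-deleted 5 cells carried 75.5% of its 106 UMIs, and in the control library 5 cells carried 46.0% of 200. Without the 5 highest cells of each library its log2 ratio was -0.77. Erythroid-dominant cells, which had the higher levels of both genes within this cluster, were 200 of 333 cells in the control library and 44 of 117 in the other.

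Slc16a11 was at 0 UMIs in all 333 control cells, which allows a share of cells with a UMI of up to 0.901% by a floor of 3 counts (exact upper limit 1.10%). In the other library 5 of 117 cells had 8 UMIs, 4 of them in 1 cell. The exact lower limit of the log2 ratio was 1.96.

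**Figure D2:**
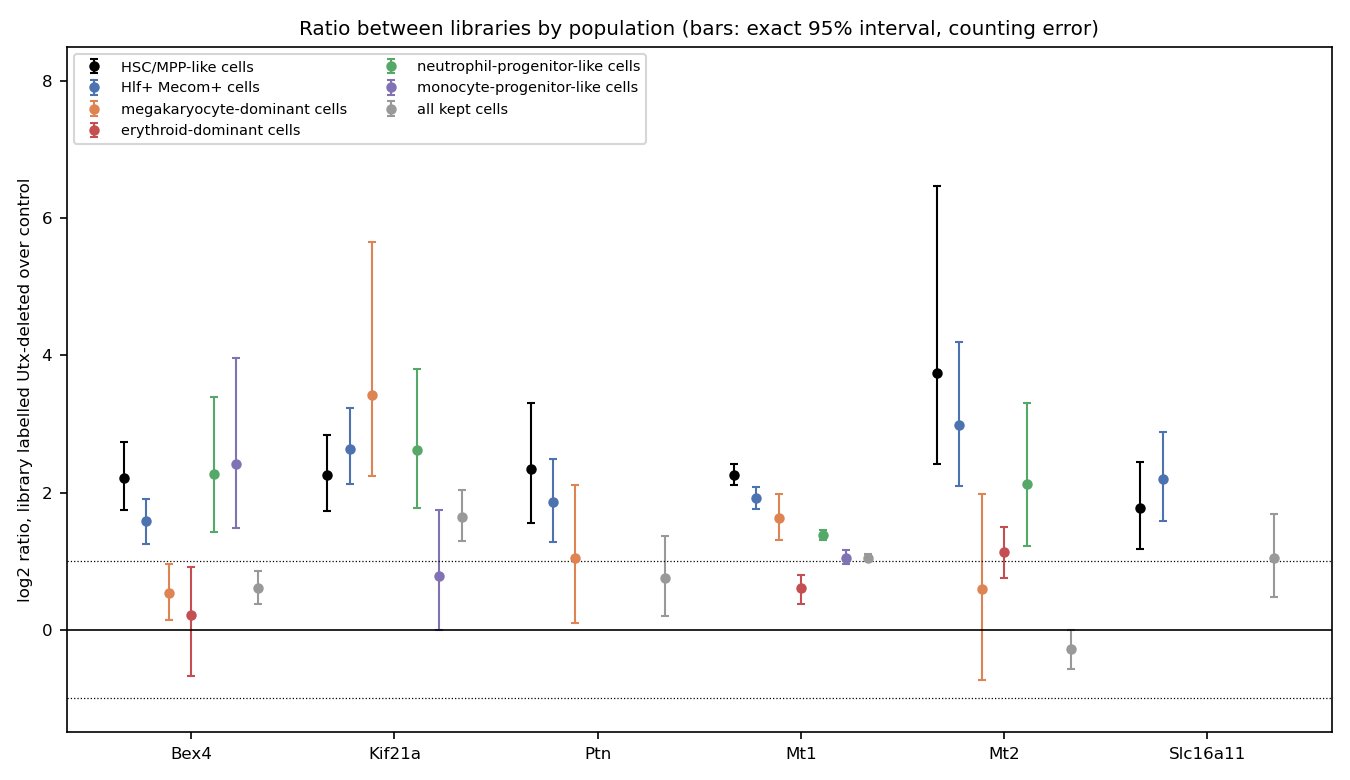
Log2 ratio of each member, library labelled Utx-deleted over control, in 7 populations with at least 20 UMIs of the member, with bars for the exact 95% interval of counting error, a solid line at 0 and dotted lines at 2-fold. The points of HSC/MPP-like and Hlf+ Mecom+ cells lie above the upper dotted line for all 6 genes, and Mt2 over all kept cells lies below 0 at -0.28.

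The members differed in how far they were restricted to stem, megakaryocyte and erythroid cells. Hlf+ Mecom+ cells, the HSC/MPP-like cluster and the Pf4- and Car1-led cluster together held 940 of 7020 control cells (13.4%) and 412 of the 7207 others (5.72%). They held 100% of Ptn UMIs in both libraries, 41 and 74, and 97.1% and 96.2% of Slc16a11 UMIs. Bex4 had 92.1% of its UMIs there in the control library and 69.3% in the other, Mt2 92.3% and 71.4%, and Kif21a 67.5% and 59.3%. Mt1 UMIs lay mostly elsewhere, with 31.7% and 18.2% in these cells and 49.8% and 48.9% in neutrophil-progenitor-like cells. Fewer such cells and less RNA per cell both lower these shares of UMIs.

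The background was read from maturing-neutrophil-like cells, 3223 and 5194 of them, at median depths of 8552 and 9637 UMIs. Kif21a, Ptn and Slc16a11 had 0 UMIs there in both libraries, which allows shares of cells with a UMI of up to 0.0931% and 0.0578% by the same floor (exact upper limits 0.114% and 0.0710%). Bex4 had 0 and 2 UMIs and Mt2 had 2 and 4. Mt1 had a UMI in 4.87% and 5.66% of them. The stem-cell gates were over 3 times as deep in median UMIs per cell, so the shares are not at matched depth.

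With each Hlf+ Mecom+ cell thinned to 2000 UMIs, the share with an Mt1 UMI was 4.44% for control and 20.9% for the other library, against 31.9% and 84.7% unthinned. Bex4 was at 2.22% and 3.95%, from 11 and 7 cells. The other 4 members had 5 or fewer UMIs per library after thinning, so no change was read from them. No gate cell was shallower than 2000 UMIs.

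**Figure D3:**
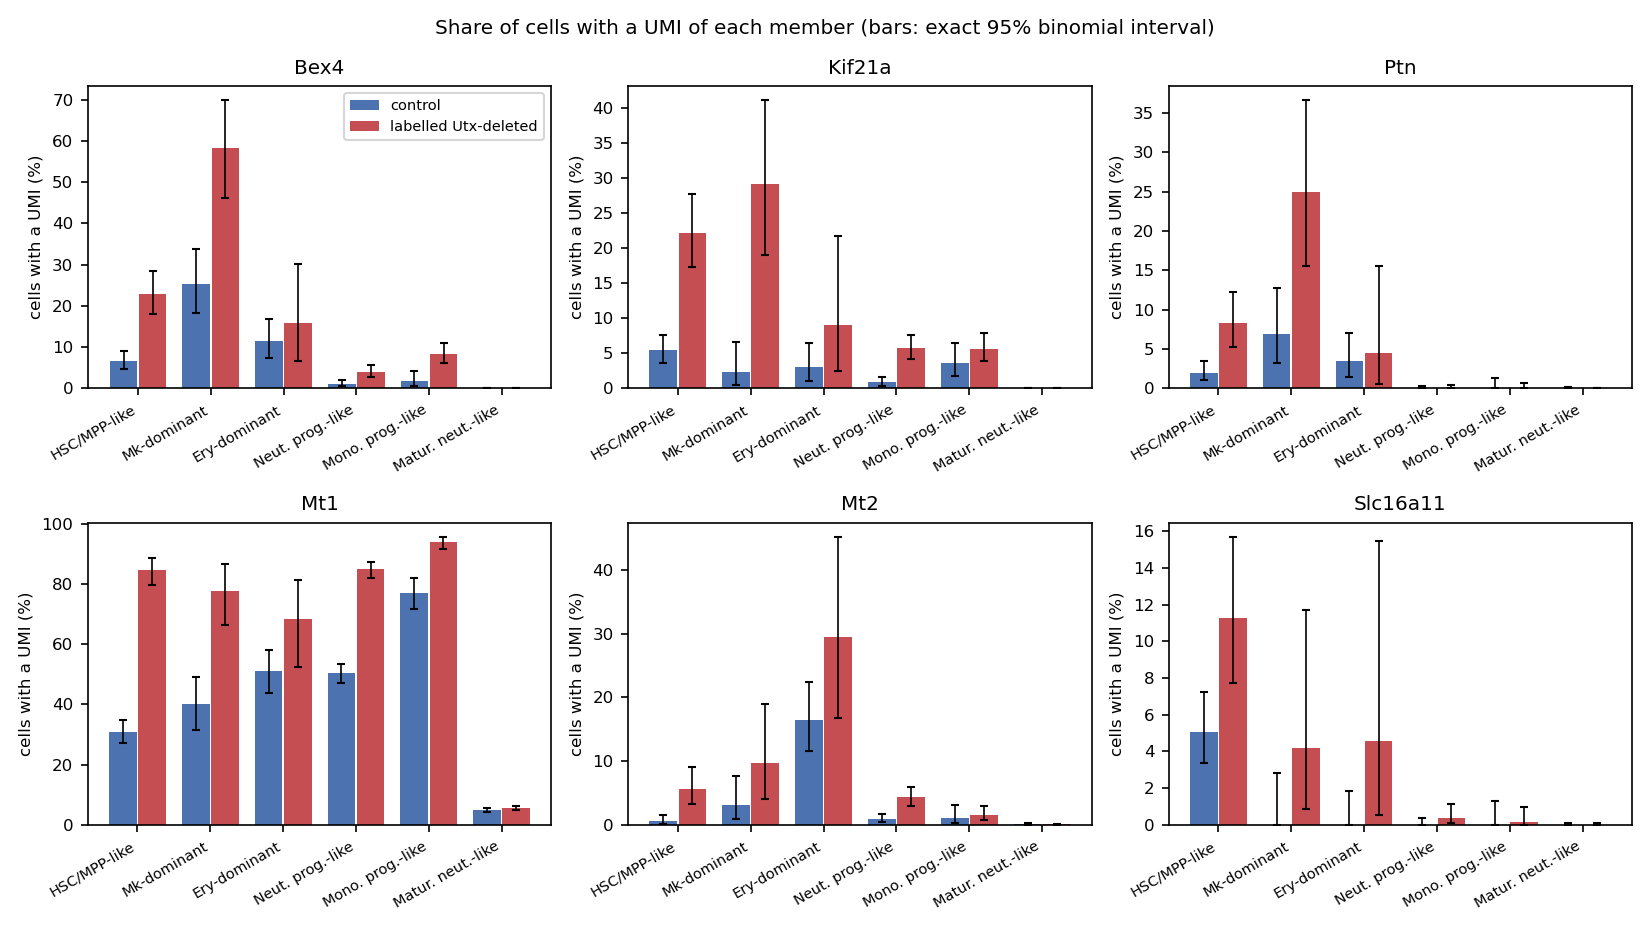
Share of cells with at least 1 UMI of each member (percent, bars from 0 with separate axes per gene) in 6 classes of cells, control in blue and the library labelled Utx-deleted in red, with exact 95% binomial intervals. Ptn has bars in the stem, megakaryocyte and erythroid classes alone, while Mt1 reaches 93.8% of monocyte-progenitor-like cells in the library labelled Utx-deleted.

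Outside the stem cells, Mt1 was also higher in the library labelled Utx-deleted in myeloid progenitors. In neutrophil-progenitor-like cells (1052 and 789 cells) it was at 107 CPM (103 to 112) and 278 CPM (271 to 286), with positive shares of 50.3% and 84.8%. Monocyte-progenitor-like cells (279 and 564) were at 95.2 CPM (89.1 to 102) and 198 CPM (191 to 205), with shares of 77.1% and 93.8%. The log2 ratios were 1.38 (1.31 to 1.45) and 1.05 (0.95 to 1.16). They are not set against the HSC/MPP-like value, which counts as used in the choice.

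Bex4 and Kif21a were low but not absent in the myeloid progenitors. Bex4 was at 0.517 and 2.66 CPM in neutrophil-progenitor-like cells and at 0.725 and 4.38 CPM in monocyte-progenitor-like cells. The log2 ratios of Bex4 were 2.27 (1.43 to 3.40), from 12 and 51 UMIs, and 2.42 (1.48 to 3.96), from 7 and 74 UMIs. Kif21a was at 0.474 and 3.13 CPM in neutrophil-progenitor-like cells and 1.66 and 2.96 CPM in monocyte-progenitor-like cells. Here the log2 ratios were 2.62 (1.78 to 3.80), from 11 and 60 UMIs, and 0.78 (0.00012 to 1.75), from 16 and 50 UMIs. In monocyte-progenitor-like cells the Kif21a interval of each hashtag included 0. Ptn was at 0 UMIs in both classes of both libraries. Over all kept cells the log2 ratio of Mt2 was -0.28 (-0.57 to 0.000097), while it was 2.12 (1.22 to 3.31) in neutrophil-progenitor-like cells. In HSC/MPP-like cells it was 3.75, a value that counts as used in the choice. In erythroid-dominant cells it was 1.13, but 0.29 for hashtag 2, whose interval includes 0. In megakaryocyte-dominant cells (0.59, -0.73 to 1.98) and monocyte-progenitor-like cells (0.65, -1.03 to 3.43) the intervals included 0. The Pf4- and Car1-led cluster, which held 90.5% of control Mt2 UMIs, was 333 of the kept control cells and 117 of those of the other library.

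The number of members found in a cell was counted as a description, since genes chosen as higher in 1 library are also more often found together in it. A UMI of 3 or more members was found in 4 of 496 control Hlf+ Mecom+ cells (0.806%) and in 56 of 177 cells of the other library (31.6%), and 48.4% and 6.21% had none. The gate cells of that library were also deeper, at a median of 32765 against 27535 UMIs, and the part of depth was not tested. In the Pf4- and Car1-led cluster 12 of 333 and 28 of 117 cells held 3 or more.

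**Figure D4:**
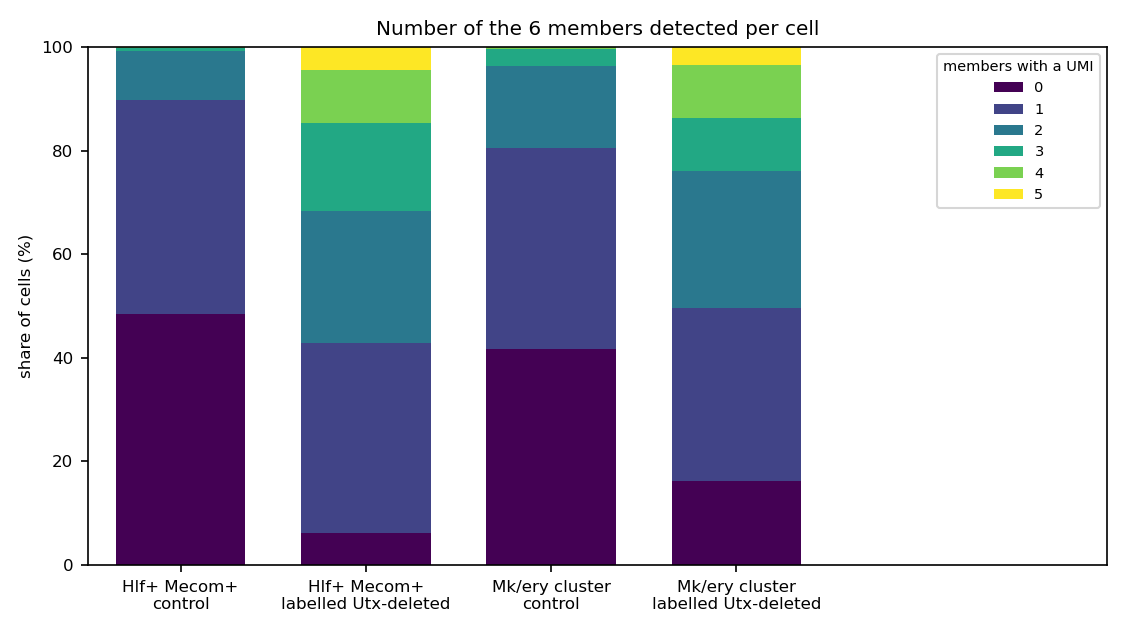
Share of cells (percent) by how many of the 6 members had at least 1 UMI, for Hlf+ Mecom+ cells and for the megakaryocyte and erythroid (Mk/ery) cluster in each library, 1 stacked bar each. The dark bottom segment, cells with none, covers 48.4% of the first bar and 6.21% of the second.

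The pairing of the members was compared within 1 library at a time, where gate cells with and without Bex4 had median depths of 29253 and 27221 UMIs (control) and of 32932 and 32697 UMIs (labelled Utx-deleted). In the library labelled Utx-deleted, Kif21a was found in 51.5% of the 68 Bex4-positive gate cells and in 20.2% of those without Bex4. Ptn was found in 38.2% of the Bex4-positive cells and 7.34% of the rest, and Slc16a11 in 23.5% and 10.1%. Mt1 did not follow this pattern, at 83.8% with Bex4 and 85.3% without. In control cells Ptn was also found more often with Bex4, 18.5% against 3.25%, but Kif21a was not, 6.15% against 6.50%, from 4 shared cells. These shares are over the whole gate. Its megakaryocyte and erythroid cells held 31 of the 65 Bex4-positive and 15 of the 26 Ptn-positive control cells. In the other library they held 24 of 68 and 13 of 34. The part of this mixture in the pairing was not tested. All 5 Mt2-positive control cells held Mt1, which was found in 31.2% of those without Mt2. In the other library all 21 held it, beside 82.7% of those without Mt2. Depth was not matched here: cells with and without Mt2 had medians of 40557 and 27497 UMIs in the control library. In the other library the medians were 34954 and 32583 UMIs.

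Antibody tags were a readout that the choice of the genes did not use. CD48 is high on multipotent and committed progenitors and low on long-term stem cells, CD150 marks long-term stem cells and megakaryocyte-biased progenitors, and CD41 marks the megakaryocyte lineage and platelet-biased stem cells. Tag values are medians of tag UMIs per cell, and cells of 1 library are not replicates, so no test was made. In the library labelled Utx-deleted, gate cells with Bex4 had 58.5 CD48 UMIs (quartiles 13.8 and 571) and those without had 672 (368 and 962). For CD150 the medians were 24.5 with Bex4 and 1 without, and for CD41 53.0 and 14.0. Control cells showed the same order at smaller distance for CD48, with 664 with Bex4 and 924 without. Their CD150 medians were 31.0 and 3 and their CD41 medians 42.0 and 14.0. The order was the same within each hashtag of each library for these 3 tags.

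Cells with Ptn stood apart in the same way. In the control library they had medians of 320 CD48, 92.0 CD150 and 58.0 CD41 UMIs, against 904, 3 and 15 in cells without it. The library labelled Utx-deleted had 39.0, 36.5 and 106 with Ptn against 592, 1 and 15 without. For Kif21a the libraries differed: control cells with and without it had close medians of CD48 (786 and 893), CD150 (3.50 and 4) and CD41 (12 and 16.0). In the library labelled Utx-deleted the cells with Kif21a had 66.0, 9 and 30, against 596, 1 and 16.0. For Mt1, gate-wide CD48 medians were higher in positive cells, 1006 against 793 in control cells and 530 against 347 in the others. These positive cells were deeper, and the order turned in the megakaryocyte and erythroid cluster, as given below. The CD150 medians of Mt1 lay close together, at 4 and 3 in control cells and 2 and 2 in the other library. The 5 control cells with Mt2 had medians of 649 CD48, 47.0 CD150 and 45.0 CD41 UMIs against 887, 3 and 16.0 without it. The 21 of the other library had 59.0, 33.0 and 63.0 against 530, 1.5 and 16.0. Cells with Slc16a11 had lower CD48 and CD41 medians than cells without, also within each hashtag. For CD150 the hashtag 1 medians went the other way, at 5 with and 4 without in control cells and 2.5 and 2 in the other library. Over all gate cells the CD48, CD150 and CD41 medians were 744, 2 and 6.50 against 897, 4 and 17 in control cells, and 284, 1 and 10 against 523, 2 and 22.0 in the other library.

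Cells with and without a gene came in different mixtures of clusters. The megakaryocyte and erythroid cluster held 31 of the 65 Bex4-positive control gate cells and 24 of the 68 of the other library. For Ptn it held 15 of 26 and 13 of 34. Within the HSC/MPP-like clusters alone, control cells with and without Bex4 had CD48 medians of 765 and 970, but CD150 (4 and 3) and CD41 (13 and 12) medians close together. In the other library the same medians were 28.0 and 740 for CD48, 9 and 0.5 for CD150, and 30 and 13.5 for CD41. Kif21a gave 52.0 and 637 CD48 UMIs there and Ptn 28.0 and 612, and in control cells 676 and 960 and, from 11 cells with Ptn, 596 and 963. The order of the CD48 medians for these 3 genes was thus also seen within the HSC/MPP-like clusters. The control CD150 medians of Ptn were 5 and 3 there. In the gate cells of the megakaryocyte and erythroid cluster the order did not hold for every gene and tag. For Mt1 the CD48 order turned in both libraries. In control cells the medians were 359 with Mt1 (34 cells) and 650 without (65 cells). In the other library they were 206 with Mt1 (32 cells) and 347 without (5 cells). Control cells with and without Kif21a had CD48 medians of 604 and 543, the former from 4 cells. Ptn in the library labelled Utx-deleted had CD48 medians of 81.0 and 300 there, but CD150 medians of 49.0 and 56.0 and CD41 medians of 218 and 325.

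**Figure D5:**
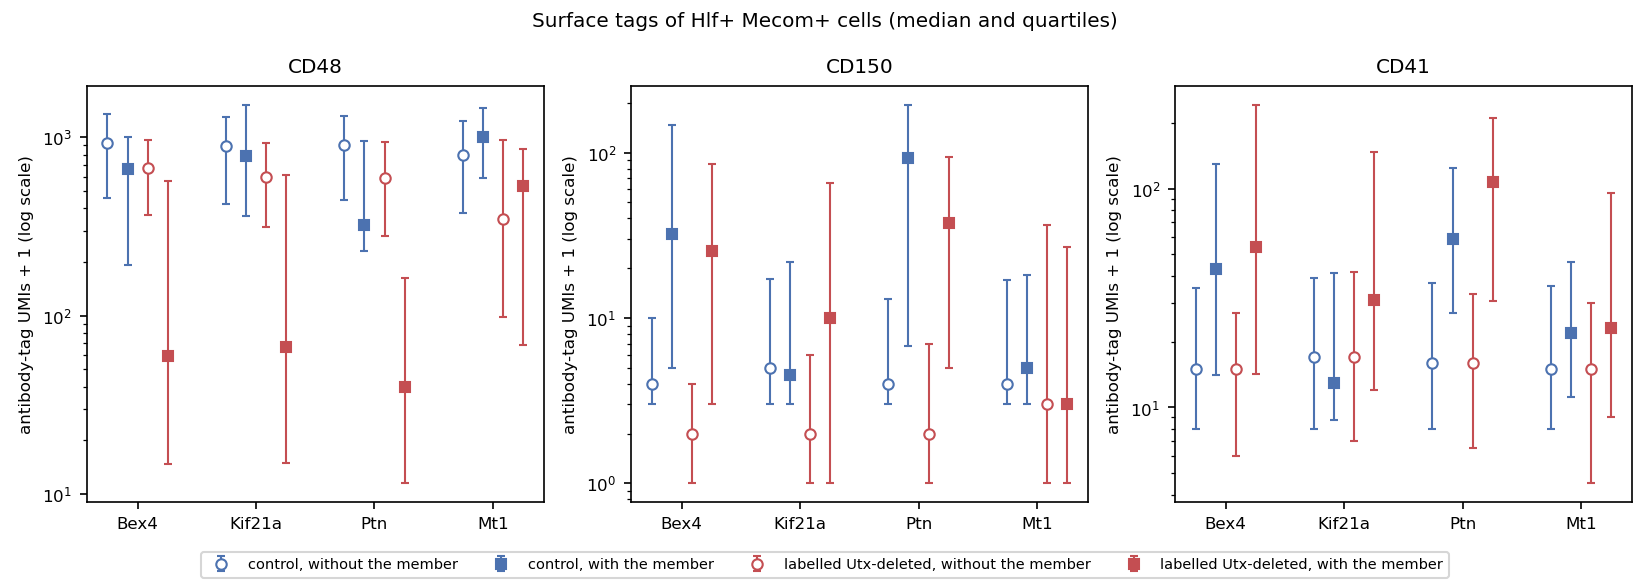
Antibody-tag UMIs plus 1 per Hlf+ Mecom+ cell (log axes; points for medians, bars for quartiles) of CD48, CD150 and CD41, for cells with (filled squares) and without (open circles) a UMI of Bex4, Kif21a, Ptn or Mt1. CD48 of the library labelled Utx-deleted (red) is lower in cells with Bex4, Kif21a or Ptn, at medians of 58.5, 66.0 and 39.0, than in cells without, at 672, 596 and 592.

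The gate as a whole had a lower CD48 median in the library labelled Utx-deleted, 507 against 886, so levels were also compared on either side of the control median. CD48 was not matched within a side: below it the medians were 419 and 311, and above it 1295 and 1114. The same cut was used for both libraries, although other tags also differed between them. Gate medians of Sca1 (15 and 6) and CD11b (11 and 5) were lower in the library labelled Utx-deleted. Those of CD117 (217 and 243) and CD34 (39 and 49) were not. Among gate cells at or below the control median of 886 UMIs, Bex4 was at 19.3 CPM in 248 control cells and at 38.8 CPM in the 133 others, a log2 ratio of 1.01 (0.65 to 1.37). Above it the levels were 3.80 and 9.79 CPM, with 1.40 (0.45 to 2.24). Kif21a gave 2.47 (1.82 to 3.28) below and 2.27 (1.29 to 3.25) above, and Mt1 2.24 (2 to 2.51) and 1.83 (1.60 to 2.05). Ptn gave 1.39 (0.76 to 2.08) below, and above it had 9 and 2 UMIs, with an interval from -3.22 to 2.30. Bex4 and Ptn were thus lower above the CD48 median in both libraries, while Mt1 was at 29.3 and 139 CPM below and at 44.4 and 158 CPM above. The ratios on each side come from gate cells, whose ratios count as used in the choice, so nothing is read from their size. The part of CD48 in the members' ratios was not tested.

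The genes most like each member were taken by Pearson's r of log2(CPM + 10) over 27 groups, each 1 cluster in 1 library with at least 50 cells, among 12455 genes. The groups share libraries, depth and cell composition, so r is a description. Bex4 was closest to Ghr, the growth hormone receptor gene (r = 0.971), Phactr1 (0.943) and Esam, an endothelial and stem cell adhesion molecule (0.940). Ptn was closest to Bex4 itself (0.942), then Phactr1 (0.930) and Gm16140 (0.926). Kif21a was closest to Eid2 (0.956), Spats2 (0.924) and Gm49708 (0.919). Mt2 was closest to Timp3 (0.984), Cavin2 (0.982) and Pf4 (0.979), of which Cavin2 and Pf4 are on the megakaryocyte marker list. These groups hold megakaryocyte and erythroid cells in 1 cluster, within which Mt2 was higher in the erythroid-dominant cells of both libraries. Mt1 was closest to Zfp111 (0.927), Prrg1 (0.926) and Fkbp11 (0.926), and its r with Mt2 was 0.479. Slc16a11 was closest to Fhod3 (0.912), Ptprk (0.910) and Hbb-bt (0.807).

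Relatives of the members were described from lists of genes, by how many of those measured passed 2-fold. Of the 15 zinc-response genes measured in Hlf+ Mecom+ cells besides Mt1 and Mt2, 0 were 2-fold higher and 0 lower, with a median log2 ratio of -0.083. The 4 most abundant in control cells were the zinc transporter genes Slc30a5 (66.2 and 69.8 CPM), Slc30a7 (57.6 and 53.6) and Slc30a9 (44.5 and 48.8), and Gclc (58.1 and 59.7), which encodes a glutathione synthesis enzyme. Among 8 glucocorticoid-induced genes 1 was at least 2-fold higher, which was Klf9 at 24.9 and 54.1 CPM, a gene named after its values were seen. The most abundant of that list, Fkbp5, was at 139 and 161 CPM and Tsc22d3 at 59.1 and 49.8 CPM.

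The Bex and Tceal family had 7 measured genes besides Bex4, of which 2 were at least 2-fold higher and 1 lower. Bex3 (119 and 110 CPM) and Tceal9 (99.7 and 98.6 CPM) were the most abundant and differed little. Bex6 was the lower one, at 48.9 and 20.6 CPM, with a log2 ratio of -1.24 (-1.53 to -0.97), and Tceal8 was at 35.9 and 55.1 CPM. Bex1, named after its values were seen, was at 11.7 and 32.7 CPM, a log2 ratio of 1.48 (1.18 to 1.79), close to that of Bex4. The other gene past 2-fold was Tceal5 (0.850 and 3.63 CPM), also named after its values were seen.

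Of the pleiotrophin receptors and relatives, 6 were measured besides Ptn and 2 of them were at least 2-fold higher. Ncl, which encodes nucleolin, was the most abundant at 1052 and 1163 CPM, followed by the integrin gene Itgav at 39.1 and 30.4 CPM. The integrin gene Itgb3, also a marker of platelets and megakaryocytes, was at 17.1 and 48.8 CPM, a log2 ratio of 1.52 (1.27 to 1.77). Nrp1 was lower at 9.56 and 4.95 CPM, though short of 2-fold. The second gene past 2-fold was Sdc2, a syndecan, at 8.57 and 27.7 CPM, named after its values were seen. In HSC/MPP-like cells 9 genes of this list were measured besides Ptn, of which 1 was at least 2-fold higher and 4 were lower. The share of all genes past 2-fold is not given for these cells, so nothing is read from these counts. The median log2 ratio of the genes besides Ptn was -0.40 there and 0.34 in the gate. These medians are over different sets of genes, so they do not show a turn of the list.

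Among the kinesin-4 genes and Kif21a partners, 1 of 4 others was at least 2-fold higher, Kank2, which encodes a cortical adaptor of the KANK family, at 3.11 and 6.93 CPM. Kif21b, the closest relative of Kif21a, was at 12 and 6.76 CPM, a log2 ratio of -0.80 (-1.35 to -0.32). The monocarboxylate transporters and their chaperones had 0 of 12 other genes 2-fold higher and 2 lower, Slc16a9 (4.39 and 1.81 CPM) and Slc16a12 (4.18 and 0.330 CPM), both named after their values were seen. The chaperone genes Emb (239 and 125 CPM) and Bsg (221 and 241 CPM) were the most abundant. Of 10 cell cycle genes 0 were past 2-fold, with Mki67 at 415 and 344 CPM. Among 15 long-term stem cell genes 1 was higher and 3 were lower, with Meis1 at 636 and 555 CPM and Mllt3 at 131 and 107 CPM. Named after their values were seen, the higher one was Ctnnal1 (11.2 and 22.4 CPM) and the lower ones were Procr (5.95 and 1.48 CPM), Ly6a (15.1 and 2.97 CPM) and Hoxb5 (2.90 and 1.32 CPM).

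In the Pf4- and Car1-led cluster, 2 of the 7 other Bex and Tceal genes were at least 2-fold higher and 0 lower, and 2 of the 6 other pleiotrophin-list genes were higher and 0 lower. Among the latter Itgb3 was at 42.0 and 123 CPM and Sdc2 at 7.78 and 22.8 CPM, and of the former Bex1 was at 7.78 and 26.6 CPM, all named after their values were seen. Of 14 other zinc-response genes 0 were higher and 2 lower, and of 8 glucocorticoid-induced genes 2 were higher and 0 lower, among them Cebpd at 8.61 and 29.6 CPM. The kinesin-4 list had 1 of 4 higher and 1 lower, the monocarboxylate list 2 of 11 higher and 0 lower, the stem cell list 1 of 12 higher and 1 lower, and the cell cycle list 0 of 9 past 2-fold.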

How the data were processed

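Cells of 1 control library and 1 library labelled Utx-deleted were profiled by 10x Genomics 3′ single-cell RNA sequencing, per the labels' protocols, together with antibody tags. The deposited values are counts of UMIs per gene and barcode, and the submitters' processing notes name Cell Ranger 7.1.0 and mm10. They were used as deposited. Cells with under 500 genes or over 10% mitochondrial UMIs were left out, as were the 6% of cells with the highest Scrublet scores in each library (458 and 462), because its automatic threshold called only 0.0267% and 0% doublets. Cells were clustered with scanpy 1.11.5 (2000 variable genes, 30 components, 15 neighbours, Leiden resolution 1) and clusters were named from marker lists. A hashtag was assigned at 100 UMIs or more and 5 times the other. The kept cells had 108372223 and 114750000 UMIs.

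UMIs were summed per library and population. Ratios had 1 UMI added to each sum, with exact conditional binomial intervals at the 95% level. Levels had Poisson and shares Clopper-Pearson intervals. UMIs come from PCR-amplified droplets, so the intervals cover counting error only. The count rule was also run on simulated Poisson counts drawn from the control sums with known changes added. Those counts have no spread between cells or libraries, so that run cannot show how the rule does on these data. The members and the lists were chosen with earlier results of these data known. Named were the 6 members, their 3 most alike genes (at least 200 UMIs) and up to 4 genes per list, the most abundant in control cells, with exceptions marked. Alternatives changed the gate, the cell filters, depth, scaling and hashtags.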

Additional observations from a re-analysis of the deposited data

Results flagged for a closer look

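Mt2 in the Pf4- and Car1-led cluster had ratios of opposite sign for the hashtags. For hashtag 1 the log2 ratio of the library labelled Utx-deleted over control was 1.55 (1.03 to 2.07), from 70 and 61 UMIs, and for hashtag 2 it was -0.36 (-0.93 to 0.16), from 89 and 44 UMIs. The difference between the hashtags was not tested, and the labels do not say what they mark. In hashtag 1 of the library labelled Utx-deleted, 4 of 46 cells held the 61 UMIs, and 1 of them held 30.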

How the results depend on the processing

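In Hlf+ Mecom+ cells every alternative that gave a ratio kept the sign of all 6 members, 81 of 102 within the reported interval. Kif21a stayed within its interval under the 17 alternatives that gave it a ratio. With HSC/MPP-like clusters in place of the gate the log2 ratio was 2.21 for Bex4 and 2.26 for Mt1. In gate cells outside the megakaryocyte and erythroid cluster it was 2.56 for Bex4, 2.70 for Ptn and 4.52 (3.06 to 8.17) for Mt2. Gate cells inside the HSC/MPP-like clusters gave 2.64 for Bex4, 2.77 for Ptn, 2.64 for Mt1 and 5.06 (3.39 to 11.36) for Mt2. Thinning to 2000 UMIs gave 0.85 for Bex4 and 2.11 for Mt1. Hashtag 1 alone gave 0.97 for Ptn and 1.66 for Mt1, and hashtag 2 alone 2.55 and 2.40. For Mt1, at least 2 UMIs of each gate gene gave 2.32 and the mean of the cells' CPM 2.16. Alternatives chosen after seeing the data were gate cells with no Flt3 UMI, at 0.80 for Bex4, 1.43 for Mt1 and 4.02 (2.76 to 6.74) for Slc16a11, and gate cells outside the basophil or mast cell, monocyte and neutrophil clusters, at 2.54 for Mt1. Another left out the 5 cells per library with the most UMIs of the member, at 1.70 (0.85 to 2.60) for Slc16a11.

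In the Pf4- and Car1-led cluster, Mt2 reversed to -0.36 with hashtag 2 alone and to -0.77 without its 5 highest cells per library (chosen after seeing the data), and was 1.13 in erythroid-dominant cells, 1.55 with hashtag 1 alone and 0.72 as the mean of the cells' CPM. Bex4 was 1.21 in cells picked by markers without clusters, 0.22 in erythroid-dominant cells and 1.21 with hashtag 2 alone. Mt1 was 0.68 by markers, 1.63 in megakaryocyte-dominant cells, 0.81 with hashtag 1 alone and 0.72 as the mean of the cells' CPM. The cause of these shifts was not tested.

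The difference in the share of positive cells of the gate, in percentage points, was 1.74 for Bex4, 1.45 for Kif21a, 1.29 for Ptn, 16.5 for Mt1, 0.565 for Mt2 and 0.687 for Slc16a11 after thinning (5 or fewer UMIs per library except for Bex4 and Mt1), and at 2 or more UMIs 13.1 for Kif21a, 5.45 for Mt2 and 4.64 for Slc16a11. In the Pf4- and Car1-led cluster thinning reversed Bex4 to -0.497, from 15 and 4 UMIs, and gave 7.31 for Mt1. It also gave 0 for Kif21a, 0.553 for Ptn and 0.855 for Slc16a11, but from 0 or 1 UMIs per library, so nothing is read from these. At 2 or more UMIs it was 15.2 for Bex4, 6.79 for Kif21a, 2.47 for Ptn and 0.855 for Slc16a11. The cause of the Bex4 reversal was not tested.

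The 386 genes higher in the gate became 201 at 50 UMIs, 2090 with any UMI, 927 at 1.5-fold and 201 after thinning, and the 516 lower became 1020 with any UMI, 1094 at 1.5-fold and 271 after thinning. The 466 higher in the cluster became 258, 2309, 1084 and 168, and the 353 lower became 216 at 50 UMIs, 775 with any UMI and 877 at 1.5-fold. An alternative with under 20 UMIs of a member, or 0 in 1 library, gave no ratio, in 13 cases. No paired analysis was possible because each group has 1 library. A second library of each group is what these data lack, and hashtags cannot stand in for it. Scaling by TMM moved no ratio out of its interval. Counts of a member were low in some control groups, with 11 UMIs of Mt2 and 32 of Slc16a11 in the gate, and 13 of Kif21a and 25 of Ptn in the cluster.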
